A study of Mus musculus with 24 samples.

Results

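The eye cup of the mouse is what remains of the eye wall once the neural retina has been lifted off, namely the retinal pigment epithelium (RPE), the choroid and the sclera. Its transcriptome was compared between wildtype mice given doxycycline (dox) and untreated wildtype mice. Both groups were littermates of the PRDM13-OE line, which holds a dox-inducible human PRDM13 cassette at Rosa26 on a C57BL/6J background. Neither group inherited the cassette, so dox had no transgene to switch on in these animals. The 3 mice with dox drank water holding 2 mg/mL dox and 10% sucrose from red-tinted bottles for 72 hours from P28. The 3 untreated mice received no dox, and whether they received sucrose is not given in the sources used here, so dox and sucrose cannot be told apart. The 6 eye cups are 6 of the 24 libraries of the series, which has 8 groups of 3, and the 6 neural retinas of the same mice served as a reference. The comparison asks what the drinking water with the inducer does to a tissue without the transgene.

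The RPE is a single pigmented layer of cells that faces the photoreceptor outer segments. It recycles the chromophore of the visual pigments through the visual cycle, engulfs shed outer segment tips, and carries ions, lactate and retinol between the retina and the fenestrated vessels of the choroid. Outer segments interdigitate with the RPE, so a neural retina does not always come away whole and an eye cup can hold retinal RNA. Doxycycline is a tetracycline that, besides its use as a switch for transgenes, can slow protein synthesis on mitochondrial ribosomes.

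Poly(A) RNA of the eye cups gave between 16321112 and 24908314 counts on genes. By Xist and 4 Y-linked genes, eye cups 1 and 2 with dox and untreated eye cup 2 came from females and the other 3 from males. RPE transcripts marked every library as eye cup. The sum of 12 visual cycle genes ran from 10908 to 50515 CPM (counts in 1e6, scaled with TMM factors) in the 6 eye cups, against means of 1002 and 914 in the retinas of the mice with dox and the untreated mice. Retinal neuron transcripts were present in all 6 eye cups as well, at levels that differed between the groups, and each result is given below beside that measurement.

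Sequences from the promoters of 4 genes whose transcripts were lower in the eye cups with dox are shown first, because they belong to the 2 groups of eye cup genes, the metallothioneins and the visual cycle genes, on which most of the results below turn. Each line holds the 250 bases before the RefSeq start, 5′ to 3′ on the strand of the gene, from GRCm38.p6. The positions are chr8:94178839-94179088 for Mt1 and chr8:94172368-94172617 for Mt2, both on the plus strand, chr3:159598931-159599180 on the plus strand for Rpe65, and chr14:37049015-37049264 on the minus strand for Rgr. Capitals in Mt1 and Mt2 mark the core of the metal response element, TGCACNC or TGCGCNC on either strand, and capitals in Rpe65 and Rgr mark TAATCC on either strand, the core bound by OTX2, a transcription factor of the RPE.
Mt1: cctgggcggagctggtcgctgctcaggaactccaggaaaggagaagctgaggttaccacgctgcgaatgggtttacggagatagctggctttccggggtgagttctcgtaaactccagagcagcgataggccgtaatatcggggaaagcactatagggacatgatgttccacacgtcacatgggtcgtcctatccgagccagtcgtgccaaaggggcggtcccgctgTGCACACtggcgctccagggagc
Mt2: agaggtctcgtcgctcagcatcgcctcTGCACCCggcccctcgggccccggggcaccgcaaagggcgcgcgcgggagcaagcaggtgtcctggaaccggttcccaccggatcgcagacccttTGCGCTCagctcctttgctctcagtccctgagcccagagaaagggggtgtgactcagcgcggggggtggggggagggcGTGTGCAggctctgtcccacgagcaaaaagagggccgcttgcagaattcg
Rpe65: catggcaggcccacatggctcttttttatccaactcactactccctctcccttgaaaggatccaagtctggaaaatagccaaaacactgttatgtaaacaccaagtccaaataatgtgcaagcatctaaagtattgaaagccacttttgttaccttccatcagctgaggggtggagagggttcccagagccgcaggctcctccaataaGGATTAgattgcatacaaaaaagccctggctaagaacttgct
Rgr: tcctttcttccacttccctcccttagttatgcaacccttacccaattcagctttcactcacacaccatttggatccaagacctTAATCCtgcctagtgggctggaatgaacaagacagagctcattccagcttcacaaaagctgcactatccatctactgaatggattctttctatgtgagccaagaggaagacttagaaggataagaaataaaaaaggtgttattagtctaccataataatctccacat
The Mt1 window held 1 match, whose first base lies 23 bases before the start, and the Mt2 window held 3, at 223, 128 and 50 bases before it. The window of the neighbouring Mt3 held 0 matches. Of all 32851 RefSeq promoter windows of this length, 21.4% held at least 1 metal response core. TAATCC was found 42 bases before the start of Rpe65 and 167 bases before that of Rgr, and in 6.25% of all windows. The windows of the other visual cycle genes searched, Rlbp1, Lrat, Rdh5, Rrh, Stra6, Rdh11 and Rbp4, held 0 matches. A match is only a description of the letters.

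Retinal neuron transcripts were more abundant in the eye cups of the mice with dox. As a measure, the summed CPM of 16 rod genes in each eye cup was divided by the same sum in the retina of the same mouse. The eye cups with dox held 70.1%, 54.2% and 35.9% of the rod level of their retinas, and the untreated eye cups held 32.8%, 4.38% and 15.8%. The groups did not overlap, but eye cup 3 with dox and untreated eye cup 1 lay close together, and the spread within each group was wide. The means were 53.4% ± 17.1 with dox and 17.7% ± 14.3 without (SD, n = 3 each), and an exact two-sided permutation test gave p = 0.1, the smallest that 3 against 3 can give. In the retinas themselves, mice with and without dox differed in rod genes by a median of -0.09 on the log2 scale. In bulk tissue, fewer cells of a type and less RNA per cell cannot be told apart, and a share of retinal RNA is a share of the library, not of the tissue.

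The same order was seen for the other retinal neurons. Amacrine cell genes stood at 65.4%, 64.1% and 43.8% of the retina in the eye cups with dox and at 29.8%, 18.1% and 22% in the untreated ones. For ganglion cell genes the values were 55.9%, 62.4% and 41.4% against 24%, 6.96% and 12.7%. The groups were apart for both lists. Bipolar cell genes stood at 72.4%, 75.1% and 64.6% against 40.5%, 30.7% and 43.6%, so that untreated eye cup 2, at 4.38% by rods, was much higher by this list. Cone, bipolar and horizontal cell genes had higher means with dox as well, and only the horizontal cell list overlapped between groups among these 6 lists, with 47.2% in eye cup 3 with dox and 47.5% in untreated eye cup 3.

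**Figure D1:**
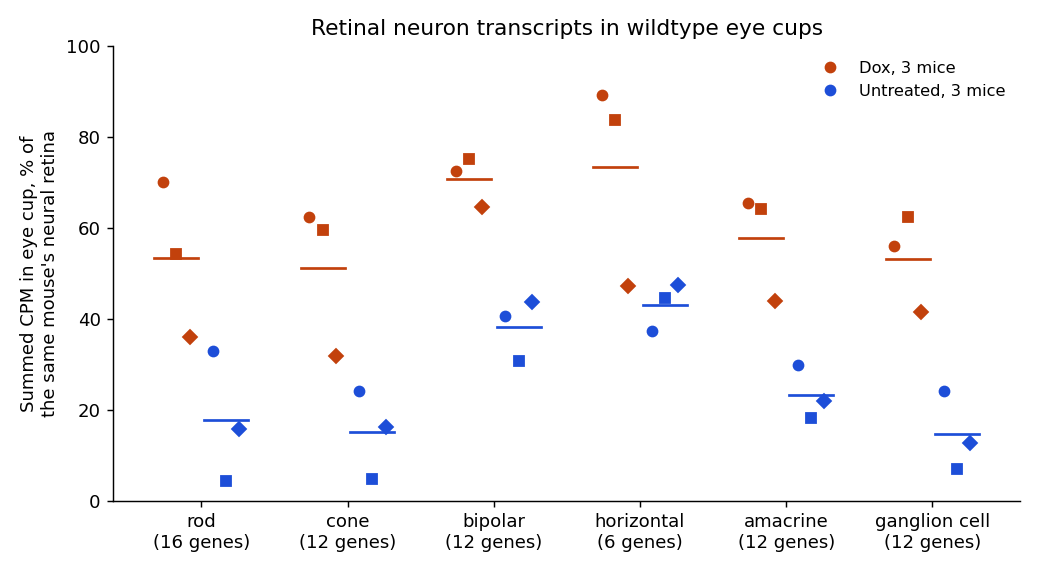
Summed CPM of 6 lists of retinal neuron genes in each wildtype eye cup, as a percent of the same sum in the neural retina of the same mouse. Points are mice (circle, square and diamond for mice 1, 2 and 3 of each group) and lines are group means; the rod values run from 35.9% to 70.1% with dox and from 4.38% to 32.8% without.

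Gnat1, the rod transducin alpha subunit, was counted at 6104, 4334 and 3049 CPM in the eye cups with dox and at 3595, 416 and 2111 CPM in the untreated eye cups. Eye cup 3 with dox was below untreated eye cup 1, so the groups overlapped. The log2 fold change, given here and below ± its SE, was 1.14 ± 0.67 (adjusted p = 0.291 by edgeR).

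DESeq2, named here with edgeR as a second test, called 3 of 16 rod genes, 5 of 12 cone, 7 of 12 bipolar, 5 of 12 amacrine, 1 of 6 horizontal and 10 of 12 ganglion cell genes higher, against 6.34% of all genes, and edgeR called 0 of these. Nefh, the heavy neurofilament chain of ganglion cell axons, was counted at 126, 120 and 103 CPM with dox and at 38.8, 10.1 and 23.5 CPM without. Its groups were well apart, and the log2 fold change was 2.27 ± 0.43 (adjusted p = 0.0673 by edgeR and 2.69e-05 by DESeq2). Gpr179, a synaptic protein of ON bipolar cells, was at 91, 91.1 and 60 CPM against 32.7, 7.63 and 15.6 CPM, a log2 fold change of 2.11 ± 0.48 (adjusted p = 0.0673 by edgeR). In both of these genes untreated eye cup 1, the one with the highest rod level of its group, was also the highest untreated value, and the link was not tested.

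Across all 21799 genes tested, edgeR's quasi-likelihood test called 0 genes higher and 0 lower with cutoffs of 0.05 on the adjusted p and of 1 on the size of the log2 fold change. The smallest adjusted p was 0.0673, and 3399 genes (15.6%) were higher and 3118 (14.3%) lower at an unadjusted p under 0.05. DESeq2, run on the same counts, called 1381 genes higher (6.34%) and 598 lower (2.74%). On simulated counts with 200 changed genes, DESeq2 called more of the unchanged genes than edgeR did (61 against 15). It also called more of the changed ones (179 against 161), so its calls were the less strict of the pair there. The simulation held no shift shared by a whole tissue class, so it does not show how either tool treats such a shift. In 4403 genes (20.2%) every eye cup with dox was above every untreated one, and in 3808 (17.5%) every one was below. Which library was in the fit decided the edgeR count: without untreated eye cup 1 it called 1536 genes higher and 455 lower, and without eye cup 3 with dox 359 higher and 571 lower. The values below are therefore read as levels, with the calls of both tools beside them.

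To separate retinal transcripts from those of the eye cup, each gene was put in a tissue class with libraries that had no part in the comparison, the 3 retinas and 3 eye cups of untreated PRDM13-OE mice. A gene was classed as retina-enriched or eye-cup-enriched when the 2 tissues differed by more than 2 on the log2 scale at an edgeR adjusted p under 0.05. The other genes tested there were called shared. The 3 classes then moved apart. Of 1267 retina-enriched genes tested, 96.8% had a positive log2 fold change, with a median of 1.60 (quartiles 1.24 and 2.02), and DESeq2 called 720 higher and 0 lower. Of 3052 eye-cup-enriched genes, 94.1% had a negative one, with a median of -0.75 (quartiles -1.04 and -0.48), and DESeq2 called 0 higher and 500 lower (16.4%). In 44% of this class every eye cup with dox was below every untreated one. The 16377 shared genes had a median of 0.04, with 661 called higher and 96 lower by DESeq2. The median over all genes was -0.05.

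**Figure D2:**
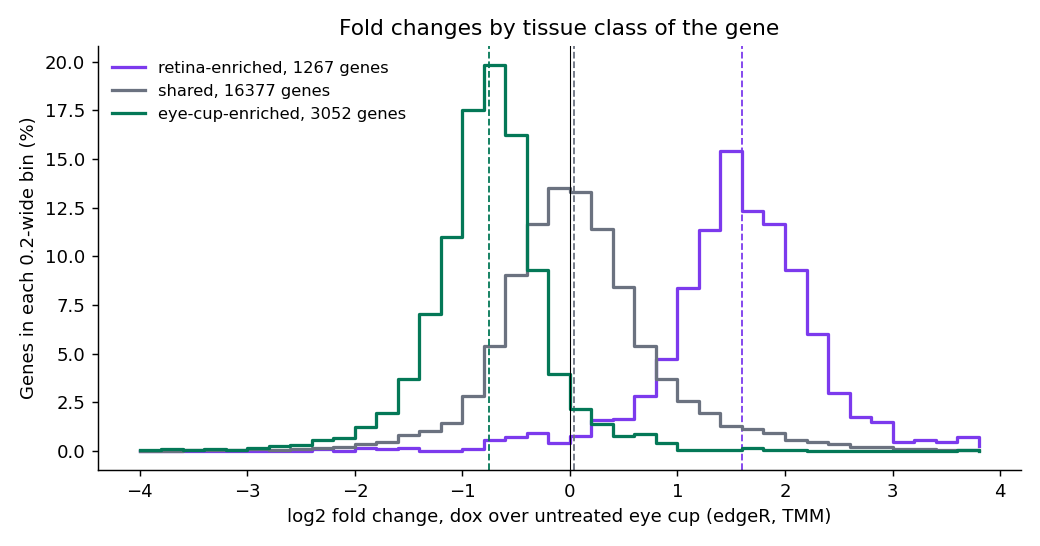
Distribution of the log2 fold change between wildtype eye cups with dox and untreated ones, in bins 0.2 wide, as a percent of the genes of each tissue class; dashed lines are medians. The classes come from other mice, and their medians lie at 1.60 for retina-enriched, 0.04 for shared and -0.75 for eye-cup-enriched genes.

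CPM values are shares of a library, and the mean rod percent was higher with dox. The eye-cup-enriched genes were therefore also scaled in 2 other ways. If the rod percent is taken as the retinal share of a library, the mean share left for the eye cup was 46.6% ± 17.1 with dox and 82.3% ± 14.3 without (SD, n = 3 each), a log2 ratio of -0.82. The median of the eye-cup-enriched genes per total counts was -0.58, and whether these values are linked was not tested. In the first scaling, TMM factors were computed from eye-cup-enriched genes alone, which moved the fold changes by a median of 0.83 on the log2 scale. The eye-cup-enriched median was then 0.07, a value that this scaling holds near 0 by construction. In the second, the counts of the retina of the same mouse, scaled to the rod sum of the eye cup, were subtracted. TMM factors were then computed anew, which also holds most fold changes near 0. The eye-cup-enriched median was then -0.001, that of rod genes -0.14 and that of retina-enriched genes 1.76. Retinal transcripts other than those of rods were thus not all removed. After subtraction edgeR called 0 genes in either direction, and DESeq2 called 6 higher and 0 lower among the eye-cup-enriched genes. With its size factors taken from eye-cup-enriched genes, DESeq2 called 16 of them higher and 15 lower, and 5324 higher and 21 lower over all genes. Values under these scalings are given below for the main gene lists and for many of the genes.

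**Figure D3:**
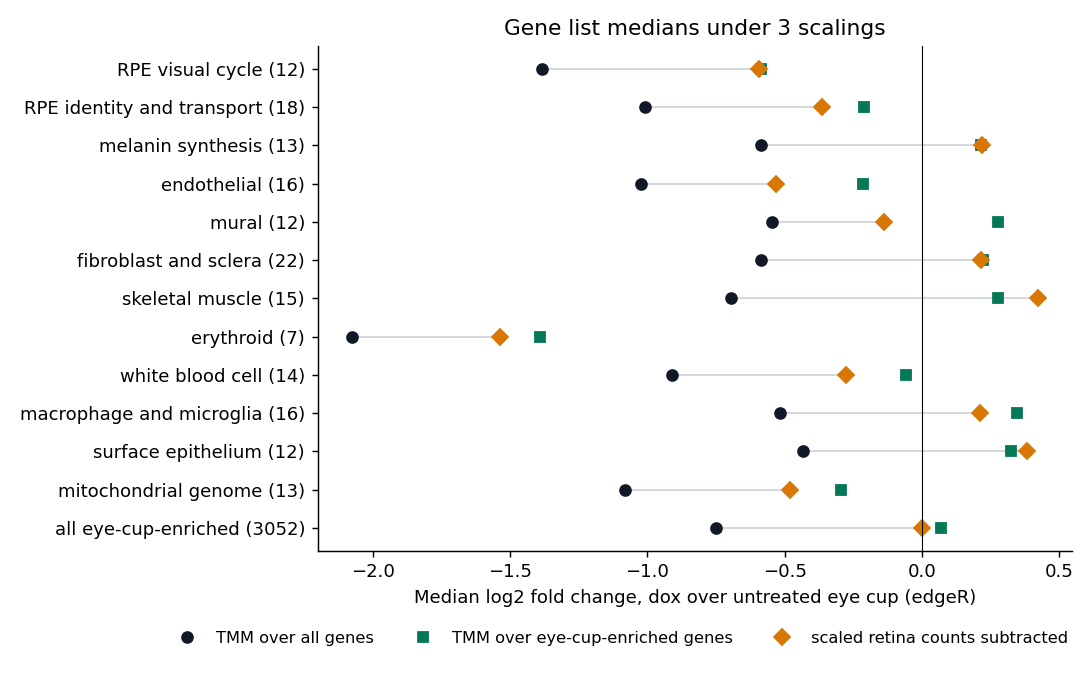
Median log2 fold change (dox over untreated eye cups, edgeR) of 12 gene lists and of all eye-cup-enriched genes, with the number of genes tested in parentheses, under TMM over all genes, TMM over eye-cup-enriched genes, and subtraction of scaled retina counts. The visual cycle list stays negative in all 3 (-1.38, -0.59 and -0.59), while the melanin and the fibroblast and sclera lists turn positive in the last 2.

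The visual cycle of the RPE was lower in the eye cups with dox, and by more than the median eye-cup-enriched gene. Of 12 genes, 12 had a negative log2 fold change, with a median of -1.38. In 11 of the 12 the groups did not overlap, and DESeq2 called those 11 lower, while edgeR called 0. The class of eye-cup-enriched genes, which holds 10 of the 12, had no overlap on the lower side in 44% and DESeq2 calls in 16.4%. DESeq2 called 0 of the 12 with size factors from eye-cup-enriched genes and 0 after subtraction. With TMM over eye-cup-enriched genes the median was -0.59, and after subtraction it was also -0.59. Every setting that left out 1 eye cup kept the median between -1.69 and -1.20.

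Rpe65, the isomerase that regenerates 11-cis retinol, lies on chromosome 3 (159304812 to 159330958 in GRCm39). It was counted at 493, 602 and 1120 CPM in the eye cups with dox and at 1598, 2327 and 2504 CPM in the untreated ones. Eye cup 3 with dox, at a rod percent of 35.9%, was the highest of its group and below the lowest untreated value. The part of retinal RNA in these values was not tested. The log2 fold change was -1.54 ± 0.35 (adjusted p = 0.0673 by edgeR and 0.000632 by DESeq2), and it was -0.70 after subtraction.

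Ttr, the transthyretin that carries retinol with its partner Rbp4, was the most abundant of the list per length, with authors' FPKM means of 6472 with dox and 19938 without. Its CPM values were 5629, 5268 and 11121 against 18462, 19945 and 28181. The groups were apart, and the log2 fold change was -1.60 ± 0.39 (adjusted p = 0.0701 by edgeR).

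The remaining members kept the same order of groups with 1 exception. Rgr, an opsin of the RPE that isomerises all-trans retinal, had a log2 fold change of -1.40 ± 0.35 (adjusted p = 0.0734 by edgeR). Rdh5, the 11-cis retinol dehydrogenase, was at -1.45, Lrat, which esterifies retinol, at -1.33, and Stra6, the retinol uptake receptor, at -1.30. Rlbp1, the retinaldehyde binding protein, which Müller glia also make, was at -1.06. The exception was Rdh11, a retinol dehydrogenase that photoreceptors make too and that was classed as shared. It was counted at 67.6, 66.9 and 62.5 CPM with dox and at 70.5, 69.5 and 65.8 CPM without, so that the groups overlapped and the log2 fold change was -0.06 ± 0.12 (adjusted p = 0.763 by edgeR). Rdh11 was positive instead with library size scaling (0.12) and with TMM over eye-cup-enriched genes (0.79).

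**Figure D4:**
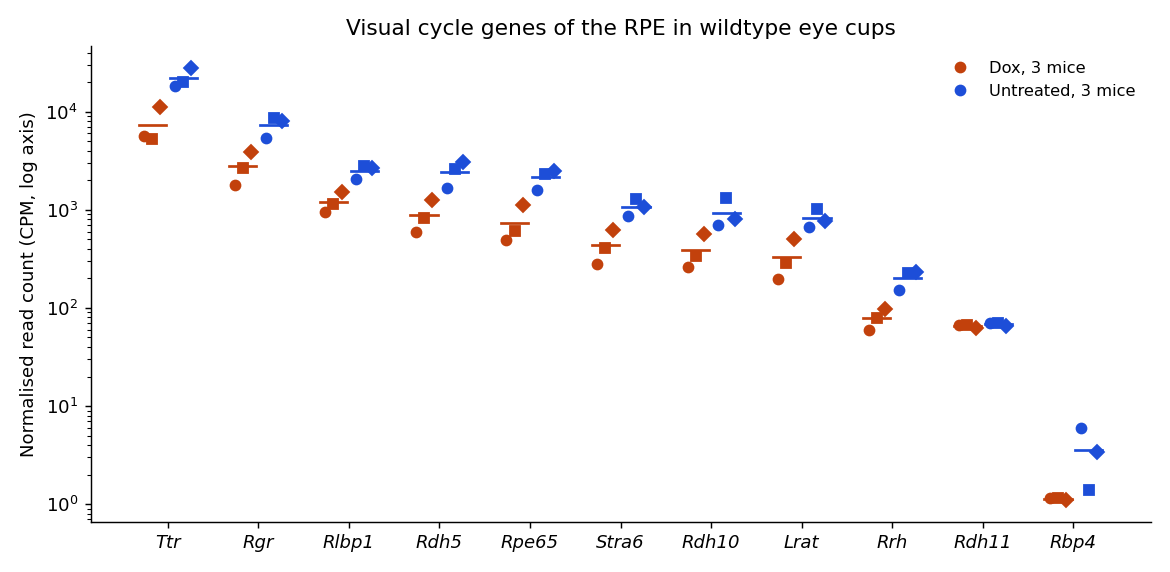
Normalised read counts (CPM with TMM factors, log axis) of 11 of the 12 visual cycle genes in the 3 wildtype eye cups with dox and the 3 untreated ones; symbols mark mice 1, 2 and 3 of each group and lines are means. All genes shown but Rdh11 have every dox value below every untreated value, as for Rpe65 with 493 to 1120 against 1598 to 2504 CPM.

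Genes for RPE identity and transport pointed the same way to a smaller degree. All 18 had a negative log2 fold change, with a median of -1.01, and 17 had no overlap between groups, and DESeq2 called 9 lower and edgeR 0. Of these genes 15 were eye-cup-enriched, the class with 44% and 16.4% by the same counts. DESeq2 called 0 of the 18 under either of the other scalings. Kcnj13, the inward rectifier of the apical RPE membrane, was at 60.8, 63.9 and 110 CPM with dox and at 204, 204 and 276 CPM without. The log2 fold change of Kcnj13 was -1.54 ± 0.27 (adjusted p = 0.0673 by edgeR and 3.83e-05 by DESeq2). Slc16a8, the lactate transporter MCT3 of the basolateral membrane, was at 508, 812 and 1089 CPM against 1692, 2350 and 2379 CPM, a log2 fold change of -1.41 ± 0.31 (adjusted p = 0.0673 by edgeR). Otx2 itself, which photoreceptors and bipolar cells also express, was at 187, 210 and 235 CPM against 333, 318 and 363 CPM. Its log2 fold change of -0.68 ± 0.15 (adjusted p = 0.0673 by edgeR) turned to 0.14 with TMM over eye-cup-enriched genes and was -0.48 after subtraction. The list median was -0.21 under the first of these scalings and -0.36 under the second.

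Melanin synthesis genes, which RPE cells and the melanocytes of the choroid share, all belonged to the eye-cup-enriched class. All 13 were negative, as were 94.1% of the class, and their median was -0.59, or -0.31 without eye cup 1 with dox and -1.004 without eye cup 3 with dox. DESeq2 called 2 of the 13 lower, against 16.4% of the class, and 3 had no overlap, against 44%. Tyrp1, an enzyme of eumelanin synthesis, was at 229, 405 and 572 CPM with dox and at 421, 614 and 679 CPM without. The groups overlapped, and the log2 fold change of -0.51 ± 0.34 (adjusted p = 0.353 by edgeR) became 0.27 with TMM over eye-cup-enriched genes and 0.29 after subtraction. The list medians under these scalings were 0.22 in both cases. Whether the visual cycle and melanin lists differed from each other was not tested.

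Metallothioneins, small cysteine-rich proteins that bind zinc and copper, were lower in every eye cup with dox than in any untreated one. Mt3, Mt2 and Mt1 lie next to each other on chromosome 8 (94879235 to 94880774, 94899292 to 94900196 and 94905710 to 94906955 in GRCm39). Mt1 was counted at 594, 600 and 918 CPM in the eye cups with dox and at 2651, 2165 and 2411 CPM in the untreated ones. The untreated eye cups were close to each other, and the groups were far apart. The log2 fold change was -1.77 ± 0.24 (adjusted p = 0.0673 by edgeR and 2.76e-10 by DESeq2).

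Mt2, the scarcer of the inducible pair per length, with an authors' FPKM mean of 71.2 against 2063 for Mt1 without dox, was at 7.8, 8.07 and 17 CPM with dox and at 55, 28.1 and 34.8 CPM without. Its log2 fold change was -1.84 ± 0.38 (adjusted p = 0.0673 by edgeR and 0.000261 by DESeq2). Mt3, a form best known from the brain, was at 115, 142 and 163 CPM against 421, 391 and 505 CPM, with a log2 fold change of -1.65 ± 0.19 (adjusted p = 0.0673 by edgeR and 1.45e-10 by DESeq2). All 3 genes were also negative with TMM over eye-cup-enriched genes (-0.99, -1.13 and -0.84 for Mt1, Mt2 and Mt3) and after subtraction (-0.97, -1.16 and -0.84). With size factors from eye-cup-enriched genes, DESeq2 called Mt1 and Mt2 lower (adjusted p = 0.00298 and 0.0149), while Mt3 missed the fold change cutoff at -0.90 (adjusted p = 0.0105). After subtraction DESeq2 called 0 of the 3, with adjusted p of 0.0292, 0.205 and 0.0322 for Mt1, Mt2 and Mt3. In the retinas of the same mice Mt1 had a log2 fold change of -0.07 and a mean of 48.4 CPM with dox and 50.8 CPM without. The change of Mt1 in the eye cup minus that in the retina was -1.67 (edgeR interaction test with the mouse as a block, adjusted p = 0.0485).

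Other genes of a list on the response to glucocorticoids and fasting had smaller log2 fold changes than Mt1 and Mt2. The 14 genes of the list, Mt1 and Mt2 included, had a median of -0.37, which was -0.66 without untreated eye cup 1 and -0.64 without eye cup 3 with dox. Of the 14, 11 were negative, 6 had no overlap on the lower side and 0 on the higher, and DESeq2 called 3 lower and 0 higher. Over all genes, 17.5% had no overlap on the lower side and 2.74% were called lower. In the eye-cup-enriched class, which holds 8 of the 14, these shares were 44% and 16.4%, near those of the list. Sgk1, the serum and glucocorticoid regulated kinase, was at 427, 475 and 602 CPM with dox and at 706, 971 and 864 CPM without. The groups were apart, with a log2 fold change of -0.76 ± 0.21 (adjusted p = 0.0783 by edgeR and 0.00948 by DESeq2). The value of Sgk1 turned to 0.07 with TMM over eye-cup-enriched genes and was -0.28 after subtraction.

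Transcripts of the mitochondrial genome were lower with dox as a group. They made up 4.61%, 3.91% and 5.24% of all counts in the eye cups with dox and 11%, 7.17% and 8.15% in the untreated ones, with no overlap. All 13 protein-coding genes were negative, with a median log2 fold change of -1.08, and DESeq2 called 6 lower and edgeR 0. Of the 13, 11 were eye-cup-enriched, a class with 94.1% negative and 16.4% called lower, and DESeq2 called 0 of them under either of the other scalings. mt-Co1, a core subunit of cytochrome c oxidase, was at 11984, 10550 and 14304 CPM against 38006, 23173 and 26349 CPM. Its log2 fold change was -1.25 ± 0.32 (adjusted p = 0.0741 by edgeR and 8.53e-05 by DESeq2).

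mt-Co3, another subunit of the same complex, was at 96.5, 65.3 and 78.9 CPM with dox and at 260, 210 and 180 CPM without. Here the log2 fold change was -1.43 ± 0.21 (adjusted p = 0.0673 by edgeR), and the eye cup and the retina of the same mice differed by -1.41 in their change (edgeR interaction test, adjusted p = 0.0485). The list median was -0.29 with TMM over eye-cup-enriched genes and -0.48 after subtraction. In the retinas the same list had a median of -0.09 and a summed mean of 18392 CPM with dox and 20274 CPM without, against 41583 and 90453 CPM in the eye cups.

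Nuclear genes for oxidative phosphorylation and for mitochondrial ribosomal proteins had negative medians as well, in a direction that depended on the scaling. Other nuclear genes for translation in mitochondria had a median of 0.03 over 16 genes. Of 94 nuclear oxidative phosphorylation genes tested, 82 were negative with a median of -0.62, and of 77 mitochondrial ribosomal protein genes 66 were negative with a median of -0.34. Of 82 cytosolic ribosomal protein genes, 81 were negative with a median of -0.62, and most genes of all 3 lists belonged to the shared class, whose median was 0.04. Transcripts of the ATF4 stress response, which is known to answer to blocked mitochondrial translation, had a median of -0.17 over 25 genes, with 1 called higher and 1 lower by DESeq2, near the 6.34% and 2.74% of all genes. With TMM over eye-cup-enriched genes the medians turned to 0.22 for oxidative phosphorylation, 0.50 for mitochondrial ribosomal, 0.19 for cytosolic ribosomal and 0.69 for ATF4 genes, beside 0.88 for the shared class. After subtraction they were -0.27, -0.25, -0.09 and -0.14, beside -0.04 for that class.

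Most endothelial genes had lower values in the eye cups with dox. Of 16 genes, 8 eye-cup-enriched and 8 shared, 15 were negative with a median of -1.02, and edgeR called 0. DESeq2 called 9 lower, against 2.74% of all genes, 16.4% of the eye-cup-enriched class and 0.586% of the shared class. The median was -0.22 with TMM over eye-cup-enriched genes and -0.53 after subtraction. DESeq2 called 0 lower under either scaling, and 1 higher with size factors from eye-cup-enriched genes. Plvap, which forms the diaphragms of fenestrated capillaries, was at 82, 94.4 and 224 CPM with dox and at 379, 576 and 254 CPM without. The groups were apart, though eye cup 3 with dox came close to untreated eye cup 3, and the log2 fold change was -1.59 ± 0.45 (adjusted p = 0.0813 by edgeR), or -0.82 after subtraction. Kdr, the VEGF receptor 2, which retinal vessels and neurons also express, went the other way at 170, 151 and 113 CPM against 91.2, 101 and 60.6 CPM. For Kdr the log2 fold change was 0.78 ± 0.24 (adjusted p = 0.0899 by edgeR). The retinas held 245 and 224 CPM of Kdr, more than any eye cup.

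Scleral and stromal genes lay on both sides of the eye-cup-enriched median, from -1.16 to 0.23. Of 22 genes for fibroblasts and sclera, 21 were negative with a median of -0.59, and DESeq2 called 1 lower. The class of eye-cup-enriched genes, which holds 20 of them, had 94.1% negative and 16.4% called lower. Col3a1, the chain of type III collagen, was at 264, 203 and 262 CPM with dox and at 399, 408 and 400 CPM without, values that were tight in the untreated group and did not overlap. Its log2 fold change of -0.73 ± 0.16 (adjusted p = 0.0673 by edgeR) turned to 0.12 with TMM over eye-cup-enriched genes and to 0.22 after subtraction. Col1a1, the main collagen of the sclera, was at 295, 301 and 831 CPM against 610, 583 and 524 CPM and overlapped, with a log2 fold change of -0.27 ± 0.40 (adjusted p = 0.692 by edgeR). It also turned positive under both scalings (0.44 and 0.48).

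Red cell transcripts were set by 1 animal. Hba-a1, an alpha globin, was at 99.7, 222 and 267 CPM in the eye cups with dox and at 1668, 323 and 254 CPM in the untreated ones. Untreated eye cup 1 alone stood out, and the other 2 untreated values overlapped those with dox, so that the log2 fold change of -1.93 had an SE of 0.74 (adjusted p = 0.136 by edgeR). The median over the 7 red cell genes tested was -2.08 with all libraries and -0.41 without untreated eye cup 1. Hba-a1 and Hba-a2 are near-identical copies, as are the beta globins Hbb-bs and Hbb-bt, and the split of reads within each pair is uncertain. White blood cell genes were negative in 13 of 14 tested with a median of -0.91 (-0.92 without untreated eye cup 1), which was -0.06 with TMM over eye-cup-enriched genes and -0.28 after subtraction. Of the 14, 9 were eye-cup-enriched, and the summed level of the list did not overlap at 38 to 48.4 CPM with dox and 64.2 to 73.6 CPM without. Csf1r, the receptor that macrophages and microglia depend on, was at 86.7, 128 and 140 CPM with dox and at 214, 272 and 248 CPM without, with a log2 fold change of -1.05 ± 0.21 (adjusted p = 0.0673 by edgeR), or -0.28 after subtraction.

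**Figure D5:**
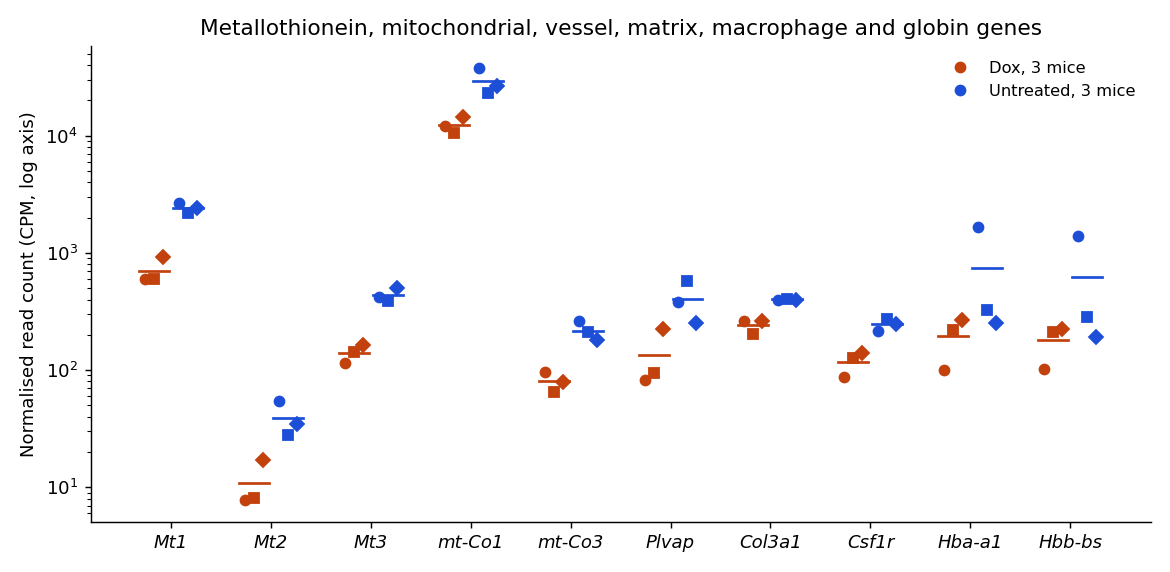
Normalised read counts (CPM with TMM factors, log axis) of metallothionein, mitochondrial, endothelial, collagen, macrophage and globin genes in the 3 wildtype eye cups with dox and the 3 untreated ones; symbols mark mice 1, 2 and 3 and lines are means. Mt1 separates the groups (594 to 918 against 2165 to 2651 CPM), while untreated eye cup 1 alone is high for Hba-a1, at 1668 CPM.

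Tissue at the edge of the dissection varied between mice. The 12 surface epithelium genes summed to 9494, 10133 and 19246 CPM with dox and to 18257, 20642 and 18528 CPM without, so that only eye cup 3 with dox reached the untreated values. Of these genes 10 were negative with a median of -0.43, 4 had no overlap on the lower side and DESeq2 called 2 lower, where their class, eye-cup-enriched for all 12, had 44% and 16.4%. The median was -0.23 without eye cup 1 with dox and -0.86 without eye cup 3 with dox, and it turned to 0.32 with TMM over eye-cup-enriched genes and to 0.38 after subtraction. The summed lens crystallins overlapped, from 1037 to 3731 CPM with dox and from 812 to 4634 CPM without. Schwann cell and myelin genes overlapped too, from 1361 to 4771 CPM with dox and from 1225 to 4775 CPM without. The crystallin sum in the retinas was 6126 CPM with dox and 531 CPM without, so for lens genes neither the subtraction nor the comparison with the retina could be read.

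Protein-coding genes picked by the smallest p in each tissue class, among those without overlap whose higher group had 10 counts or more in each library, gave the clearest single contrasts. Among retina-enriched genes these were Fads6, a fatty acid desaturase family member, Cacna1a, the pore of P/Q-type calcium channels, Ntng1, the axon guidance protein netrin G1, Ret, the GDNF family receptor, and Fry, a scaffold of the NDR kinases. Fads6 was at 14.3, 14.6 and 10.8 CPM with dox and at 3.08, 3.15 and 3.93 CPM without, a log2 fold change of 1.96 ± 0.23 (adjusted p = 0.0673 by edgeR). The other 4 had log2 fold changes between 1.42 and 1.72. Among eye-cup-enriched genes the rule gave, beside Mt1 and Mt3 and among others, the cAMP sensor Rapgef4 (-1.06, and -0.24 with TMM over eye-cup-enriched genes) and the secreted protein Cytl1 (-2.56). Cytl1 was scarce, at 1.92, 1.49 and 1.81 CPM against 9.34, 14.8 and 6.79 CPM, and was called lower by DESeq2 with size factors from eye-cup-enriched genes too (adjusted p = 0.000632).

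In the shared class the same rule gave genes in both directions. Higher with dox were Dapk1, a death-associated kinase, Pfkfb3, a driver of glycolysis, Pcdh9, a protocadherin, Tnr, the matrix protein tenascin R of nerve tissue, and Brinp3, a gene of neurons. Dapk1 was at 34.2, 37.7 and 43.1 CPM with dox and at 16.2, 15.2 and 16.3 CPM without, with a log2 fold change of 1.27 ± 0.15 (adjusted p = 0.0673 by edgeR). The retinas stood at 63.8 and 62.6 CPM of Dapk1, above every eye cup. Eye cup 3 with dox, at a rod percent of 35.9%, was the highest for Dapk1, and the part of retinal RNA in these values was not tested. Among those lower with dox were Cys1, the cilium protein cystin, Cdkn1c, the cell cycle inhibitor p57, Atp5md, a subunit of ATP synthase, and Gzmm, a granzyme, all between -1.02 and -0.86 on the log2 scale. With TMM over eye-cup-enriched genes these 4 were at -0.0032, -0.21, -0.13 and -0.04. No retina-enriched gene met the rule on the lower side and no eye-cup-enriched gene on the higher side, counts of 0 in both cases.

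The retinas of the same mice gave the second test. Between retinas with dox and untreated ones, edgeR called 1 gene higher (0.00485%) and 0 lower of 20631 tested. The change with dox in the eye cup was then set against the change in the retina, in one edgeR model over the 12 wildtype libraries with the mouse as a block. Of 23814 genes, 298 (1.25%) had a higher change in the eye cup and 83 (0.349%) a lower one. Of the 298, 139 were retina-enriched and 159 shared, and of the 83, 72 were eye-cup-enriched and 11 shared. Stra6 differed by -1.44 (adjusted p = 0.0499), and Nefh differed by 2.36 (adjusted p = 0.0485). These calls rested on single mice: without mouse 1 or mouse 2 with dox, or untreated mouse 3, 0 genes were called in either direction, while the counts were 2023 and 430 without untreated mouse 1, 457 and 77 without untreated mouse 2, and 745 and 708 without mouse 3 with dox.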

How the data were processed

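RNA sequencing of 6 wildtype eye cups, 3 with dox and 3 untreated, was analysed, with the 6 neural retinas of the same mice and, for the tissue classes, 3 retinas and 3 eye cups of untreated PRDM13-OE mice. Sequencing and mapping to GRCm39 were done by Novogene for the authors, and the submitters' processing notes name CASAVA and HISAT2. The counting tool, annotation release and strand setting are not given in the sources used here, so reads of overlapping and antisense genes cannot be told apart. For each of 56748 genes the authors deposited raw read counts of every library, and every test used these counts. The deposited FPKM values, which correct a gene's counts for its length and the depth of the library, were used only to compare levels between genes. Columns of the authors' own comparisons (group means, fold changes and p-values) were not used. There were 0 columns of per-sample values left unassigned.

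The quasi-likelihood test of edgeR 4.0.16 (R 4.3.3, TMM factors) was run on genes whose counts summed to 10 or more over the libraries of a comparison. Benjamini-Hochberg adjusted p-values under 0.05 with a log2 fold change past 1 in size were calls. SEs are the log2 fold change divided by the square root of F. CPM values are counts in 1e6, scaled with TMM factors, except in the percent of the retina, which uses total counts alone. DESeq2 1.42.0 was the main alternative, and its adjusted p was not given for 3390 genes. The mouse block of the tissue by dox test pairs eye cup and retina of a mouse by the labels. Subtracted counts were rounded, and values below 0 were set to 0, so retinal genes were not read on that scale. The tests were checked on simulated data, where DESeq2 called more unchanged genes and more changed genes than edgeR. Each eye cup came from its own mouse by the labels, and each mouse also gave a retina. The p-values of the main comparison thus measure the spread between these mice. No 2 eye cups had equal counts in more than 4.61% of genes.

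The genes named were the 5 highest and 5 lowest protein-coding genes by p in each tissue class, without overlap and with 10 counts or more in each library where they were higher, the called members of each list and its most abundant members. Other list members were chosen with their values in view, and some genes that meet these rules are not reported here. The comparison, its members and the gene lists were chosen with earlier results of these data known. Promoter sequences were taken from RefSeq (GRCm38.p6), where Ttr and Rdh10 had no entry. Figures were drawn with Python 3.11.15 and matplotlib 3.10.9, and numpy 2.4.6 and pandas 2.3.3 were used. Alternatives were library size scaling, other filters, robust fitting, all 12 eye cups in one fit, a rod covariate, other thresholds and leaving out each eye cup.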

Additional observations from a re-analysis of the deposited data

Results flagged for a closer look

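The change with dox differed between the eye cup and the retina of the same wildtype mice, by the interaction term of the edgeR model, in 298 genes (1.25% of those tested) with a higher change in the eye cup and 83 (0.349%) with a lower one. Among the genes of the naming rule and the gene lists that are reported here, 29 passed, 15 with a positive and 14 with a negative value. Those of the naming rule were picked for small p and no overlap in the same eye cups, so that their passing is a description only. The values that follow are the change of the eye cup minus that of the retina on the log2 scale, each at an edgeR adjusted p between 0.0485 and 0.0499. The median change of the 1349 retina-enriched genes tested was 1.93, and that of the 3060 eye-cup-enriched genes -0.85.

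The genes with positive values were retina-enriched or shared. Brinp3 stood at 3.28, Kcnb2, a potassium channel subunit in the cone list, at 2.37, Nefh at 2.36, Gpr179 at 2.34, Gpr37, a receptor of the Müller glia list, at 2.10 and Fads6 at 2.05. Cacna1a followed at 1.81, Pcdh9 at 1.64, Ret at 1.62, Prkca, the protein kinase of rod bipolar cells, at 1.61, Fry at 1.57 and Tfap2b, a transcription factor of horizontal and amacrine cells, at 1.53. Ntng1 was at 1.43, Dapk1 at 1.32 and Tnr at 1.29.

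The genes with negative values were eye-cup-enriched, except Cdkn1c, Mrps21 and Ndufb1, which were shared. Mt3 was at -1.76, Mt1 at -1.67, Emcn, a sialomucin of capillary endothelium, at -1.66, Col3a1 at -1.64 and Stra6 at -1.44. mt-Co3 was at -1.41, Csf1r at -1.33, Nqo1, a quinone reductase, at -1.30, Cdkn1c at -1.24 and Trpm3, a cation channel of the RPE, at -1.06. Ndufb1, Atp5e and Mrps21, all for mitochondrial proteins, were at -1.15, -1.12 and -1.09, and Postn, a matrix protein, at -1.03. Col3a1 differed partly through the retinas, where its log2 fold change was 0.92 at means of 4.22 CPM with dox and 2.22 CPM without. The rod percent of the eye cups moved with the groups, and its part in these differences was not tested.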

How the results depend on the processing

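The edgeR count of the main comparison was 0 higher and 0 lower, and stayed so with filterByExpr, robust fitting, all 12 eye cups, no fold change cutoff or a cutoff of 2, the rod covariate and edgeR on subtracted counts. Library size gave 658 and 98, TMM over eye-cup-enriched genes 5566 and 11, and no filter 700 and 360. DESeq2 gave 1381 and 598, with size factors from eye-cup-enriched genes 5324 and 21, and on subtracted counts 88 and 33. An adjusted p threshold of 0.1 gave 1040 and 578. The last 3 of these settings and DESeq2 without single eye cups were chosen after seeing the data. The cause of these differences was not tested. Leaving out 1 eye cup gave 0 to 1536 genes higher and 0 to 571 lower with edgeR, and with DESeq2 the counts were 423 and 224, 372 and 229, and 1508 and 1007 without eye cups 1, 2 and 3 with dox, and 2096 and 746, 1100 and 458, and 615 and 404 without untreated eye cups 1, 2 and 3.

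The mouse numbers did not pair the 2 groups, since same-numbered eye cups correlated at 0.37, -0.0786 and 0.118 in their deviations, and the replicate block on that number gave 0 and 0 genes. The interaction counts of 298 and 83 became 1350 and 221 with library size, and 785 and 287 with no replicate block. They ran from 0 to 2023 and from 0 to 708 without single mice.

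Direction turned for 8 of the 56 genes followed. With TMM over eye-cup-enriched genes Sgk1 was 0.070, Col3a1 0.12, Otx2 0.14, Tyrp1 0.27, Col1a1 0.44 and Rdh11 0.79, and with DESeq2 size factors from those genes 0.014, 0.055, 0.078, 0.22, 0.39 and 0.73. After subtraction Col3a1, Tyrp1 and Col1a1 were 0.22, 0.29 and 0.48 with edgeR and 0.25, 0.32 and 0.51 with DESeq2. With the rod covariate Tyrp1 was 0.14, Col1a1 0.39 and Gnat1 -0.36. Rdh11 was 0.12 with library size and 0.0082 with DESeq2 without eye cup 3 with dox. Prkca was -1.33 (edgeR) and -1.40 (DESeq2) after subtraction, a scale that takes out retinal counts in proportion to the rod sum. Thresholds of 1 and 3 for the tissue classes put the medians at 1.03 and 1.97 for retina-enriched and at -0.66 and -0.79 for eye-cup-enriched genes.

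With 3 mice a group and rod percents from 4.38% to 70.1%, scarce genes such as Cytl1, with 28 to 46 counts in the eye cups with dox, rest on few counts.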

Other observations

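Lists of other cell types and responses were measured in the same 6 eye cups, beside a median log2 fold change of -0.05 over all genes and of -0.75 over eye-cup-enriched genes. Müller glia genes were mixed, with a median of 0.19 over 12 genes, 4 called higher and 3 lower by DESeq2, against 6.34% and 2.74% of all genes. Apoe, a lipid carrier of Müller glia and the RPE, was at 3450, 4501 and 5192 CPM with dox and at 6964, 9082 and 11242 CPM without, a log2 fold change of -1.05 (adjusted p = 0.0777 by edgeR and 0.00195 by DESeq2), or -0.23 with TMM over eye-cup-enriched genes. The groups did not overlap, and in the retinas Apoe stood at means of 1165 and 931 CPM. Genes of mural cells had a median of -0.55, of skeletal muscle -0.70, of platelets -0.88, of macrophages and microglia -0.52 and of adipocytes -0.03. Single libraries moved several of these: without untreated eye cup 2 the medians were 0.08 for Müller glia, -0.32 for mural cells, -0.24 for skeletal muscle and -0.32 for macrophages and microglia, and without untreated eye cup 3 that of Müller glia was 0.41. Without untreated eye cup 1 it was 0.11, and without eye cup 1 with dox 0.13. Skeletal muscle was at -0.33 without eye cup 3 with dox, and the adipocyte median changed sign, from -0.63 without eye cup 1 with dox to 0.34 without eye cup 2 with dox.

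Among response genes, those for interferon and MHC class I had a median of -0.24 over 25 genes and those for inflammation and complement -0.34 over 20. Leaving out 1 eye cup moved the first to -0.40 (eye cup 2 with dox) and the second to values from -0.74 (untreated eye cup 1) to -0.04 (untreated eye cup 2), with -0.57 and -0.51 without eye cups 1 and 2 with dox. Matrix metalloproteinases and their inhibitors were at -0.49 over 17 genes, with 1 called higher and 0 lower by DESeq2, near the shares over all genes, and collagens and their crosslinking enzymes at -0.62 over 22. Immediate early genes were at 0.03, circadian clock genes at 0.25 and sterol and fatty acid synthesis genes at -0.01 over 20 genes each, and xenobiotic response genes at -0.58 over 14. Genes for translation in mitochondria other than ribosomal proteins had a median of 0.03 over 16. Without single eye cups, immediate early genes ran from -0.05 to 0.39, circadian clock genes from 0.14 to 0.27, sterol and fatty acid synthesis genes from -0.14 to 0.05, genes for mitochondrial translation from -0.01 to 0.06 and metalloproteinases from -0.60 to -0.32. With TMM over eye-cup-enriched genes the medians of all these lists but those of platelets were positive.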
